A study of Mus musculus with 2 samples.

Results

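The potassium channel genes of the mouse genome carry symbols that begin with Kcn. Of 99 such symbols in the deposited matrices, 2 were left out by the rule that defines the set, and 9 of the rest had fewer than 20 unique molecular identifiers (UMIs, each the trace of 1 captured RNA molecule) over both libraries. The remaining 88 members were described among 31054 genes in all. The members nearest to the limit were Kcna10 with 21 UMIs, Kcnn4 with 27, Kcnk5 with 30 and Kcne2 with 31. Just outside it lay Kcnk15, Kcnj15, Kcne1 and Kcnk18 with 6 UMIs each.

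The study took the preoptic area of the hypothalamus, a region that holds sleep-promoting neurons, from wild-type C57BL/6J mice aged 9 to 10 weeks and profiled single cells. One library, SD, came from mice kept awake for 6 h. The other, SD_RS, came from mice that had the same 6 h of sleep deprivation and then 2 h of recovery sleep. Animals of both sexes were pooled in each library, the labels do not give the number of animals, and no undisturbed group is part of the comparison, so both libraries share the deprivation. Cells were prepared by Act-seq, which blocks transcription during dissociation, and captured on the 10x Genomics platform. With 1 library per group there is no replicate error. Every interval below is a 95% interval of counting error, and no p-value is given.

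Potassium channels let potassium leave the cell, which holds the resting potential negative and ends the action potential. Voltage-gated alpha subunits open on depolarization, and accessory subunits alter their gating and trafficking. Calcium- and sodium-activated channels follow internal ion levels, inward rectifiers hold the membrane near the potassium equilibrium potential, and two-pore channels carry leak current. In glia and mural cells of the brain, the same families serve potassium buffering and the control of vessel tone. Shaker-type channels in flies and small-conductance calcium-activated channels in mice are known to affect the amount of sleep.

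The SD library held 10262 barcodes with a median of 7534.5 UMIs, and the SD_RS library 8106 barcodes with a median of 14774 UMIs. After filters on gene number, mitochondrial share and called doublets, 9295 and 7412 cells remained. The members took 0.205% of all UMIs in SD and 0.196% in SD_RS. Marker genes named 8 classes: neurons (3869 cells in SD and 4290 in SD_RS), astrocytes (2102 and 1274), oligodendrocytes (1391 and 859), oligodendrocyte precursors (287 and 184), microglia (228 and 170), endothelial cells (464 and 292), pericytes (123 and 49) and smooth muscle cells (88 and 73). All markers of each class were detected in its cells in both libraries. Cells of unnamed clusters numbered 708 and 197, and 23 barcodes occurred in both libraries. Of the unnamed cells, 549 in SD and 63 in SD_RS formed a cluster with neuron markers but few UMIs (median 3188.5). The neuronal levels and ratios below leave these cells out, and the effect of this on the ratios was not tested. The libraries differed in ways that the groups do not define. Xist is a transcript of female cells. Among neurons with UMIs of Xist or of Y-linked genes but not both, those with Xist made up 38.7% in SD and 77.4% in SD_RS. The summed level of 14 heat-shock and chaperone genes in astrocytes was 5503 in SD and 3394 in SD_RS, scaled to 1000000 UMIs.

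Levels below are given as CPM, the UMIs of a gene scaled to 1000000 UMIs of all genes in the cells of that class and library. They are not corrected for transcript length, so levels are compared between classes, clusters and libraries for a gene and not between genes. RNA released into the suspension also reaches droplets of other cells. The median share of their neuronal level that pan-neuronal marker genes reached in a class served as the background for the members in that class. In astrocytes it was 7.98% in SD and 3.5% in SD_RS, but the highest marker reached 82.2% and 87.6%. In oligodendrocyte precursors the highest marker exceeded its neuronal level in both libraries. The median may therefore not measure released RNA alone. Members were counted with at least 20 UMIs in a class and a lower interval bound above the background of that class in both libraries. They numbered 23 of 88 in astrocytes, 21 in oligodendrocyte precursors and 13 in oligodendrocytes. Smooth muscle cells had 8, microglia 4, and endothelial cells and pericytes 1 each. The share of all genes above the background was not counted.

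A member was called class-enriched where the same class was highest in both libraries, by at least 2 times the second class, with at least 20 UMIs of the member in that class in each library. Of the 78 members that could be tested, 33 met this rule (42.3%), against 22.7% of 15905 genes. Neurons held 17 of them (21.8%, against 8.52% of genes), astrocytes 5 (6.41%, against 3.21%), oligodendrocyte precursors 4 (5.13%, against 1.80%), oligodendrocytes 2 (2.56%, against 2.19%), microglia 2 (against 2.75% of genes), smooth muscle cells 2 (against 0.918%) and pericytes 1 (against 0.578%). No member was enriched in endothelial cells (2.68% of genes). With called doublets kept, 16 of the 17 neuronal members no longer met the rule and Kcnk4 did; 13 of the 17 were still highest in neurons in both libraries, and the second class was most often pericytes or smooth muscle cells, which then held 139 and 56 cells and 114 and 85 cells. The share in oligodendrocytes lay near the background of all genes, and that in microglia did not exceed it.

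**Figure D1:**
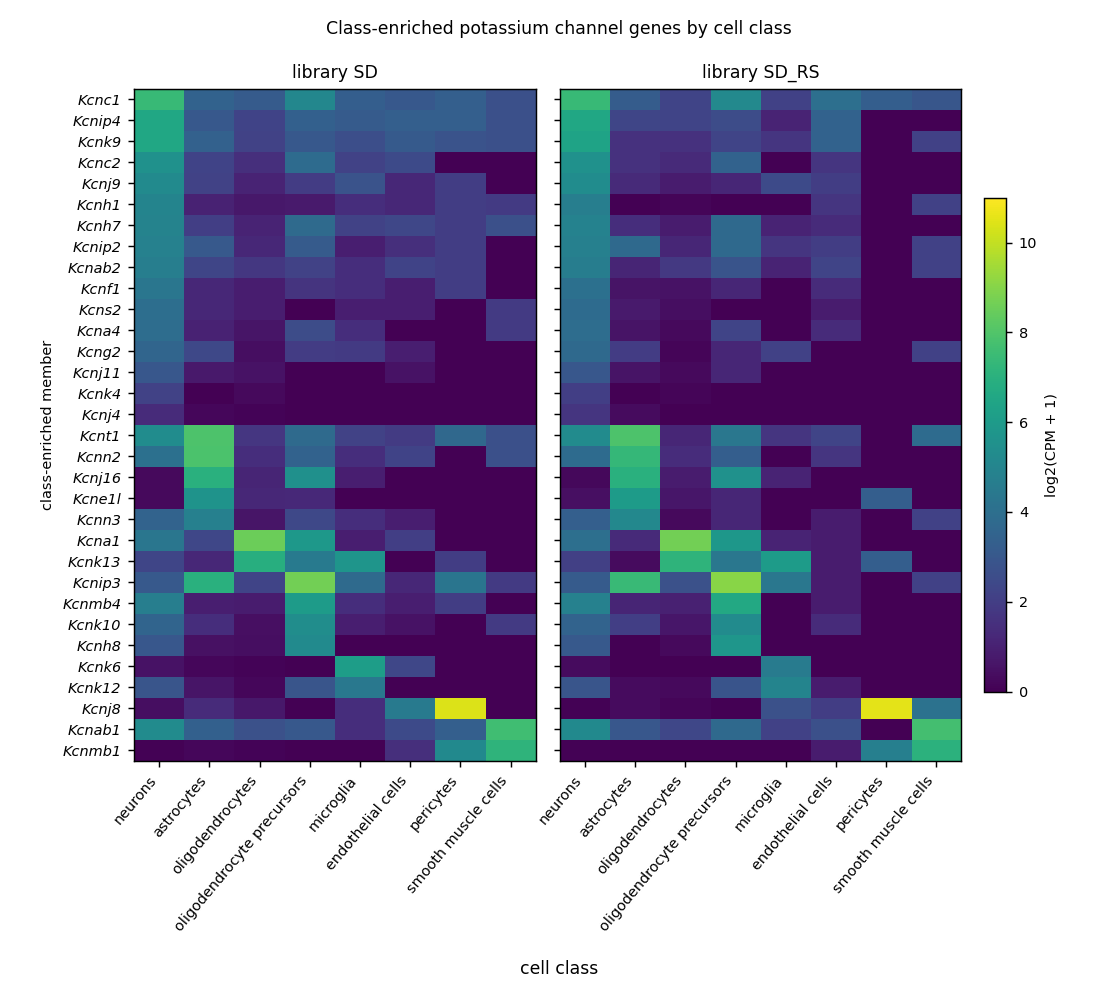
Levels of 32 of the 33 class-enriched members (rows) in the 8 marker-defined classes (columns), as log2(CPM + 1), with SD on the left and SD_RS on the right. The 16 members drawn that were enriched in neurons fill the first column in both libraries, and Kcnj8 in pericytes reaches 1369 CPM in SD and 1497 in SD_RS.

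Sequences 5' of the annotated start are shown for 3 members whose enrichment outside neurons the class comparison turns on: Kcnj8, by far highest in pericytes, and the relatives Kcnk12 and Kcnk13, of which the first was highest in microglia and the second in oligodendrocytes and then microglia. Each run holds the 250 bases before the start, 5' to 3' on the gene's strand, from RefSeq on GRCm38.p6. Capitals mark GAGGAA, the core bound by ETS factors of the PU.1 type, or TTCCTC, the same core on the other strand; the search covered both strands, and the 2 forms cannot overlap.
Kcnj8 (chr6:142571615-142571864, minus strand): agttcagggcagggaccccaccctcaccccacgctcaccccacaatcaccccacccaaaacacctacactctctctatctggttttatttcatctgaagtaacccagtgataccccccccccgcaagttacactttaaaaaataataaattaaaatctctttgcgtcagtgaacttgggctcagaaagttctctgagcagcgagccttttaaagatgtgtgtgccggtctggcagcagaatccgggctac
Kcnk12 (chr17:87797995-87798244, minus strand): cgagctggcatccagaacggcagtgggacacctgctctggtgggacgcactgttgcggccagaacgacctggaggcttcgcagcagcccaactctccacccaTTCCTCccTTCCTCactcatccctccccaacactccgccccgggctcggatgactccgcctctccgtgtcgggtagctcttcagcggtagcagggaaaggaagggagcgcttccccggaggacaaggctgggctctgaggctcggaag
Kcnk13 (chr12:99964249-99964498, plus strand): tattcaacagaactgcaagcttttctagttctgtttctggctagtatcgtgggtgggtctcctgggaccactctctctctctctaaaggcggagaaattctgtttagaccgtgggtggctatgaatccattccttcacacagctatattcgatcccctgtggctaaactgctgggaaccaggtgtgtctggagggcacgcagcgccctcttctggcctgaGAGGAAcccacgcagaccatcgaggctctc
The Kcnj8 window held no match, that of Kcnk12 held 2 on the other strand, and that of Kcnk13 held 1 on the gene's strand. Among all promoters of this length 7639 of 32851 (23.3%) held the core, and so did 22 of 88 promoters of the 63 members with an entry (25.0%). CG dinucleotides numbered 6 in the Kcnj8 window, 16 in that of Kcnk12 and 8 in that of Kcnk13, beside a median of 6.0 over all promoters and 8.0 over those of members. These matches are descriptions of letters and show no binding.

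Among the 38 voltage-gated alpha subunits, 9 were enriched in neurons, 1 in oligodendrocytes, 1 in oligodendrocyte precursors, and 27 met the rule for no class. Kcnc1, whose channels close fast and allow rapid firing, was at 170.4 CPM in SD neurons and 168.9 in SD_RS neurons, and in no other class above 34.7. Its relative Kcnc2 was at 47.0 and 45.9 in neurons. Kcnq3, a subunit of the M-current that restrains repetitive firing, was spread over neurons (65.9 and 59.3), oligodendrocytes (85.9 and 94.3) and oligodendrocyte precursors (64.6 and 58.3). Enriched in neurons, like Kcnc1 and Kcnc2, were the ether-a-go-go channel gene Kcnh1 (30.1 and 24.8), the ERG channel gene Kcnh7 (29.4 and 28.8), the A-type gene Kcna4 (14.1 and 14.1), and Kcnf1 (19.1 and 15.5), Kcns2 (14.5 and 13.2) and Kcng2 (10.9 and 12.5), which encode modifier subunits that conduct only together with other alpha subunits.

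Kcna1 (ENSMUSG00000047976, chromosome 6, 126640397 to 126646384, minus strand, GRCm38) encodes a Shaker-type channel known from axons beside the node of Ranvier. It was at 369.5 CPM in SD oligodendrocytes (359 to 380) and 407 in SD_RS (394 to 421), 6.43 and 7.30 times the second class, which was oligodendrocyte precursors. Neurons had 19.1 and 15.3 CPM of Kcna1. Kcna6, of the same family, was higher in oligodendrocytes (100.9 and 95.2) than in neurons (74.3 and 61.8), by 1.36 and 1.54 times, short of the limit for a call. Kcna2 was highest in astrocytes in both libraries (133.7 and 160.2), followed by oligodendrocyte precursors (112 and 91.7), and was at 65.1 and 58.9 in neurons. In oligodendrocyte precursors, the ELK channel gene Kcnh8 was at 36.9 and 53.3, beside 6.99 and 7.45 in neurons. The leading genes of the precursor cluster included Gpr17 and Neu4, which mark cells on the way to oligodendrocytes. The A-type subunit gene Kcnd2 was at 139.8 and 122.7 in precursors, 97.0 and 114 in astrocytes and 93.9 and 87.9 in neurons, and so met the rule for none.

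Of the 11 accessory subunits, 3 were enriched in neurons and 1 each in astrocytes, oligodendrocyte precursors and smooth muscle cells. Kcnip3 encodes a calcium-binding partner of A-type channels that is also known as a transcriptional repressor. Its level in oligodendrocyte precursors was 405 CPM in SD (373 to 440) and 526 in SD_RS (477 to 578), 3.23 and 3.02 times that of astrocytes, the second class. Neurons had 7.41 and 7.82 of it. The neuronal members of that family were Kcnip4 (93.8 and 92.1) and Kcnip2 (27.4 and 26.7), whereas Kcnip1 was at 68.8 and 65.3 in neurons and at 58.2 and 28.5 in precursors. Kcnab2, a beta subunit of Shaker-type channels, was neuronal (25.3 and 23.9). Its relative Kcnab1 was highest in smooth muscle cells, at 197 (154 to 247) and 206 (158 to 264), 5.15 and 5.64 times the neuronal level of 38.2 and 36.5. Kcne1l, of the family of small membrane-spanning subunits, was at 49.4 and 64.3 in astrocytes and at 0.212 and 0.358 in neurons. Kcne4, of the same family, was shared by pericytes (109 and 156) and smooth muscle cells (97.0 and 123), with overlapping intervals.

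None of the 11 members of the calcium- and sodium-activated group was enriched in neurons, while 3 were enriched in astrocytes. The sodium-activated channel gene Kcnt1 was at 243 CPM in SD astrocytes (232 to 254) and 242 in SD_RS (227 to 257), 6.10 and 6.36 times its neuronal level of 39.8 and 38.0. Of the small-conductance channels, which open with calcium after spikes, Kcnn2 was at 237 and 159.7 in astrocytes, beside 15.4 and 13.5 in neurons. Kcnn3 was at 26.4 and 34.3 in astrocytes and 10.3 and 9.07 in neurons. Kcnma1, the pore subunit of the large-conductance BK channel, was at 104.7 and 102.7 in neurons, 69.6 and 85.5 in precursors, and 72.7 and 66.4 in smooth muscle cells. Its beta subunits separated these classes. Kcnmb1, the smooth muscle beta subunit, was at 143 (107 to 187) and 133 (94.9 to 181) in smooth muscle cells, 36.3 and 26.0 in pericytes, and 0.0557 and 0.0307 in neurons. Kcnmb4, the beta subunit known from neurons, was at 65.3 and 97.9 in precursors and 25.1 and 27.6 in neurons.

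Among the 12 inward rectifiers, Kcnj8 had the sharpest class pattern. It encodes the pore of the ATP-sensitive channel of mural cells (ENSMUSG00000030247, chromosome 6, 142564837 to 142571614, minus strand, GRCm38). Pericytes held 452 UMIs of it in SD and 173 in SD_RS, which gave 1369 CPM (1245 to 1501) and 1497 (1282 to 1737). The second class was 64.3 times lower in SD (endothelial cells, 21.3) and 90.2 times lower in SD_RS (smooth muscle cells, 16.6). With all cells clustered at resolution 0.5 in place of 1.0, the call of Kcnj8 in pericytes was lost. Smooth muscle cells had 0 UMIs of Kcnj8 in SD, which allows up to 9.94 CPM, and 5 in SD_RS. Of all Kcnj8 UMIs, 1251 in SD and 640 in SD_RS, most lay in cells that the filters or the naming left out. The clusters left unnamed included 1 that mixed endothelial and mural markers. Of the 28 UMIs of Kcnj8 counted in SD neurons, 17 lay in a small cluster with the pericyte marker Vtn among its leading genes. Kcnj16 was highest in astrocytes (127 and 124), followed by precursors (44.7 and 45.9). Enriched in neurons were Kcnj9, a subunit of the G-protein-gated channels that carry inhibitory transmitter responses (36.9 and 39.5), Kcnj11, the pore of the neuronal ATP-sensitive channel (6.81 and 6.91), and Kcnj4, a strong rectifier (1.59 and 2.21). The strong rectifier Kcnj12 was at 64.7 and 106 in smooth muscle cells and 63.6 and 43.3 in pericytes, where SD_RS had 5 UMIs. Kcnj2, of the same subfamily, was highest in microglia (21.8 and 17.2), and endothelial cells came second, 4.01 and 1.61 times lower. Oligodendrocytes had 4.62 and 3.54 of Kcnj2 and neurons 2.16 and 1.20.

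The 11 two-pore channel genes were spread over more classes than neurons: 2 were enriched in neurons, 2 in microglia, and 1 each in oligodendrocytes and precursors. Kcnk13, whose THIK-1 protein carries the resting potassium conductance of microglia, was highest in oligodendrocytes, at 119 CPM (113 to 125) and 140.1 (132 to 148). Microglia followed with 52.3 (39.9 to 67.3) and 65.2 (49.4 to 84.5). Its relative Kcnk12 was highest in microglia, at 20.1 (12.7 to 30.1) and 29.8 (19.4 to 43.6), beside 6.52 and 6.47 in neurons. Kcnk6, known from macrophages, was at 68.9 in SD microglia (54.5 to 85.8, 79 UMIs) and 22.9 in SD_RS microglia (14.0 to 35.3, 20 UMIs), and no higher than 4.08 in any other class. Kcnk9, an acid-sensitive leak channel, was neuronal (91.7 and 83.0), as was Kcnk4 (3.44 and 3.14), of the mechanically and lipid-gated TREK family. Kcnk10, of the same family, was highest in precursors (40.5 and 38.4). The TREK gene Kcnk2 was at 88.6 and 77.9 in neurons and at 93.0 and 103 in precursors. Kcnk1 was highest in astrocytes (247 and 279) but by less than 2 times over precursors. Kcnk3, the closest relative of Kcnk9, was shared by smooth muscle cells (107.8 and 113), precursors (89.4 and 120.2) and pericytes (69.6 and 86.5), with 27.6 and 29.0 in neurons. None of the 5 members that encode no channel subunit was class-enriched. The antisense transcript Kcnq1ot1 had the most neuronal UMIs of all members (277 and 249 CPM) and was found in every class.

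Neurons fell into 46 clusters, of which 31 had at least 50 cells in each library and are named here by their leading genes. No potassium channel gene took part in the clustering, although the clusters come from other genes of the same cells. The transporters Slc32a1 and Slc17a6 load inhibitory and excitatory vesicles. A cluster was of the Slc17a6 type where Slc17a6 and its relatives Slc17a7 and Slc17a8 together exceeded Slc32a1, and of the Slc32a1 type otherwise. By this rule 23 clusters were of the Slc32a1 type and 8 of the Slc17a6 type. Of the 54 members with at least 300 neuronal UMIs in each library, 34 had the same highest cluster in both. The share of all genes with a shared highest cluster was not counted. Across the 31 clusters, the correlation of a member's log2 level between libraries had a median of 0.861 (0.298 to 0.983). These points share library, clustering and depth, so it is a description. The summed level of all members was highest in the Sst Npy Tcf4 cluster, at 2924 and 2732 CPM, and lowest in the Sox3 C1ql3 Ctxn3 cluster in SD, at 1857, where SD_RS had 1842.

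**Figure D2:**
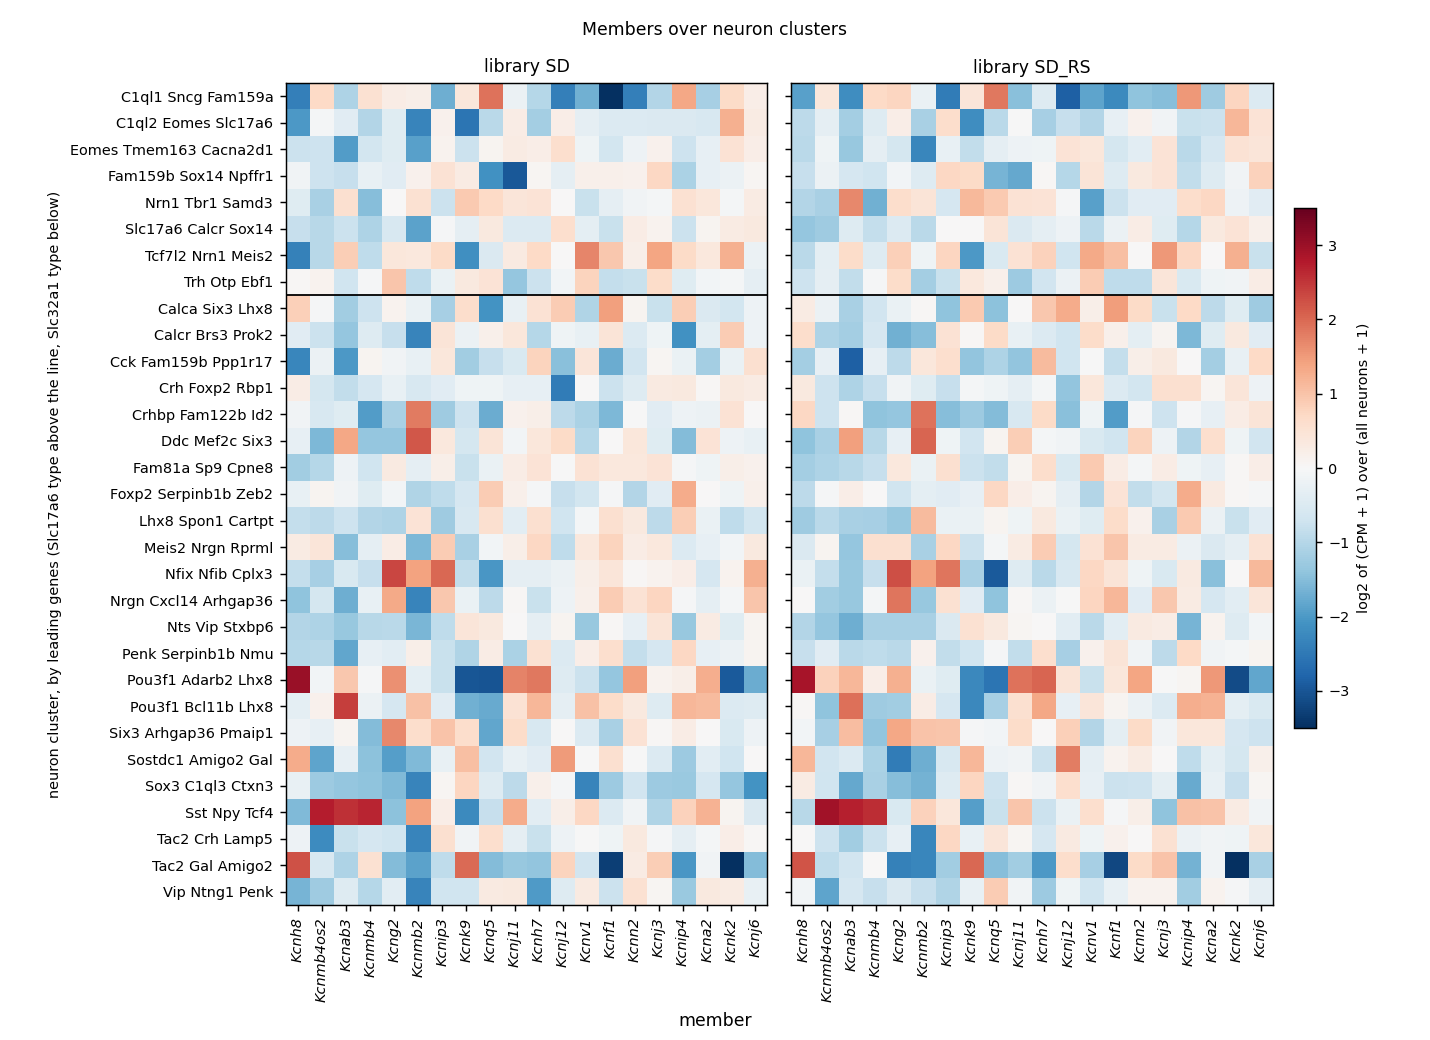
Levels of the 20 members with the largest ratio of their highest cluster to all neurons among the 34 whose highest cluster was the same in both libraries (columns) over 31 neuron clusters (rows), as log2 of the cluster's level plus 1 over that of all neurons plus 1, with SD and SD_RS in separate panels. Clusters of the Slc17a6 type lie above the line and those of the Slc32a1 type below it. The highest cluster of each member is the same in both panels because the choice required it.

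Among the leak channels, Kcnk9 reached 364 CPM (342 to 387) in the Tac2 Gal Amigo2 cluster of SD and 340.5 (318 to 364) in that of SD_RS. The median cluster was at 62.5 and 68.6. The next clusters, Sostdc1 Amigo2 Gal (191 and 186) and Nrn1 Tbr1 Samd3 (175 and 183), did not differ from each other beyond their counting intervals. The lowest were Pou3f1 Adarb2 Lhx8 in SD (10.7) and Pou3f1 Bcl11b Lhx8 in SD_RS (16.5). Kcnk2 had its lowest level in the very cluster where Kcnk9 was highest: 1.76 CPM (0.571 to 4.11, 5 UMIs) in SD and 5.22 (2.78 to 8.93, 13 UMIs) in SD_RS, against a median cluster at 83.9 and 70.9. Its highest clusters were Tcf7l2 Nrn1 Meis2 (212 and 184) and C1ql2 Eomes Slc17a6 (209 and 175), whose intervals overlapped. Neither gene was alone in being low in Pou3f1 Adarb2 Lhx8 cells, where Kcnk2 was at 10.7 and 7.98 and Kcnk9 at 10.7 and 16.7.

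**Figure D3:**
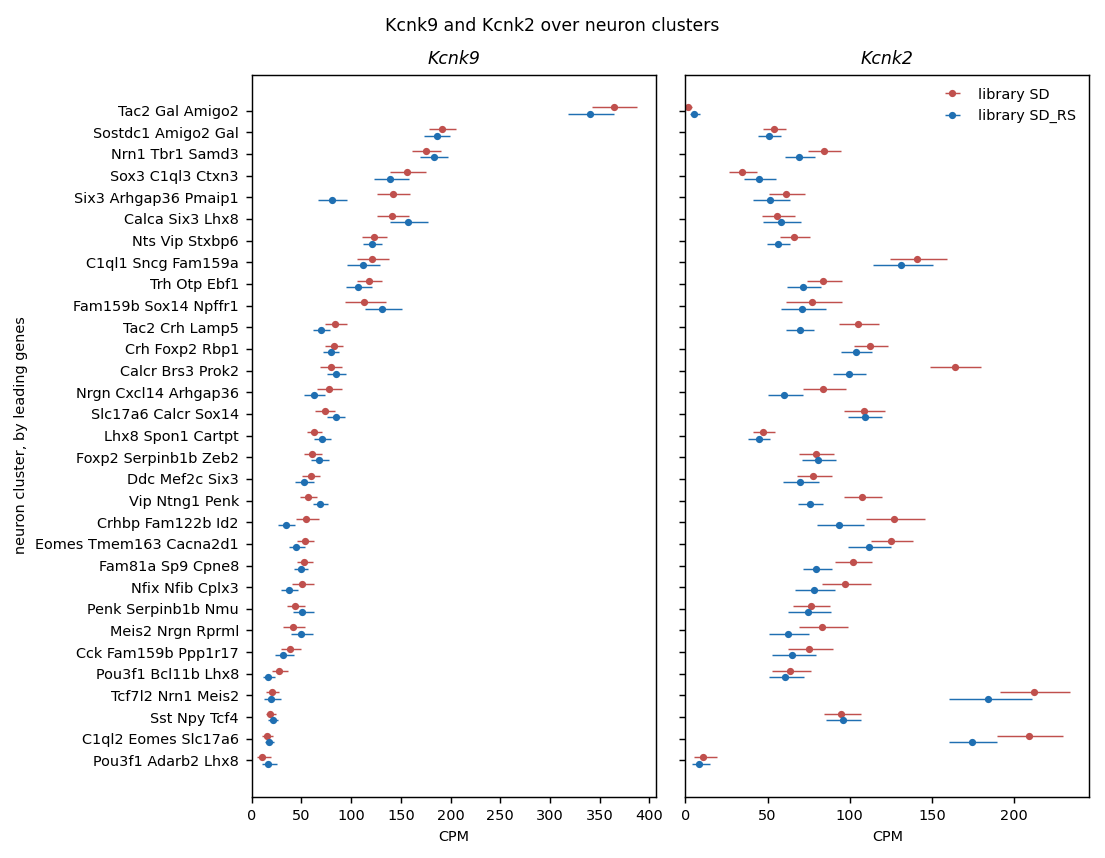
Levels of Kcnk9 and Kcnk2 in 31 neuron clusters, in CPM, with 95% counting intervals for SD and SD_RS. The Tac2 Gal Amigo2 cluster has the highest Kcnk9 level (364 in SD and 340.5 in SD_RS) and the lowest Kcnk2 level (1.76 and 5.22).

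Several members were highest in the cluster led by Sst, Npy and Tcf4. Kcnmb4 was at 163 (149 to 178) and 172 (158 to 187) there, 6.5 and 6.23 times the level over all neurons, with C1ql1 Sncg Fam159a next at 37.1 and 45.2. Kcnmb4os2, annotated on the opposite strand of that locus, was highest in the same cluster (40.8 and 59.5). No source used here says whether the counting used strand, so reads of Kcnmb4 and Kcnmb4os2 may not be told apart. Kcnab3, a beta subunit of Shaker-type channels, also peaked there (37.3 and 47.2), but in SD its interval overlapped with that of Pou3f1 Bcl11b Lhx8 (34.3). Over the 31 clusters Kcnab3 was most like Kcna2 (Pearson 0.796 and 0.824) and Kcnc1 (0.738 and 0.806). Kcnb2 (76.7 and 76.3) and Kcnd3 (79.1 and 79.9), a delayed rectifier and an A-type gene, were highest in this cluster as well.

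The Pou3f1 Adarb2 Lhx8 cluster, with 50 and 56 cells, had the highest level of 7 of the 54 members in both libraries. How many of all genes were highest there was not counted, so the 7 are a description only. Kcnh8 was at 63.9 and 61.4, which was 9.14 and 8.24 times its level over all neurons; Tac2 Gal Amigo2 followed at 36.6 and 37.7, and the median cluster was at 5.01 and 4.16. Kcnh7 was at 108 and 121, Kcna2 at 159 and 171, Kcnn2 at 43.6 and 36.7 and Kcnj11 at 25.2 and 28.7. The others were Kcnc4, at 114 and 122, and Kcnq1ot1, at 381 and 399.6. The calcium-binding Kcnip1 showed the opposite, with 1.94 and 0.798 CPM in these cells against a median cluster of 65.4 and 63.6.

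The Nfix Nfib Cplx3 cluster had the highest levels of Kcng2 (59.1 and 63.1), Kcnip3 (32.8 and 31.3) and the G-protein-gated subunit Kcnj6 (29.9 and 25.0). Of the Slc17a6 type, C1ql1 Sncg Fam159a led for the M-channel subunit Kcnq5 (58.8 and 54.0) and for Kcnip4 (243 and 265), and Tcf7l2 Nrn1 Meis2 led for the G-protein-gated subunit Kcnj3 (63.3 and 72.9) and the modifier Kcnv1 (15.2 and 13.7). The BK beta subunit Kcnmb2 was highest in Ddc Mef2c Six3 (21.3 and 19.1), Kcnj12 in Sostdc1 Amigo2 Gal (21.6 and 23.7) and Kcnf1 in Calca Six3 Lhx8 (52.8 and 44.1). Kcnf1 was near absent from C1ql1 Sncg Fam159a in SD (0.53, from 1 UMI) and from Tac2 Gal Amigo2 in SD_RS (0.803, from 2 UMIs).

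The deposited cluster table of the authors, built from their own clustering, lists 36 members in 35 clusters. In the authors' deposited table, Kcnk9 was detected in 100% of the cells of cluster i2, whose leading genes include Tac2, and in 56.4% of other cells. The same table gives Kcnmb4 73.5% and 28.2% in cluster i4 (Bcl11b and Lhx6), Kcnh8 67.3% and 10.8% in i10 (Pou3f1 and Lhx8), Kcng2 73.7% and 19.1% in i18 (Nfix and Nfib), and Kcnj3 80.9% and 35.8% in e7 (Tcf7l2 and Nrn1). These percentages come from the same cells and are not independent of the levels above.

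Between the transmitter types, 3 of 56 members were higher in the summed Slc17a6 clusters by over 1.5-fold in both libraries (2.19% of genes) and 2 were higher in the summed Slc32a1 clusters (1.47% of genes). Kcnk2 was at 125.5 CPM in Slc17a6 clusters and 78.7 in Slc32a1 clusters of SD, and at 111 and 68.3 in SD_RS, log2 differences of 0.67 (0.60 to 0.75) and 0.70 (0.63 to 0.78). The types overlapped by cluster: single Slc32a1 clusters reached 163.9 and 104.0, above the lowest Slc17a6 clusters at 76.8 and 69.3. Kcnj5, of the G-protein-gated family, was at 7.13 and 2.25 in SD and at 5.44 and 1.35 in SD_RS, with log2 differences of 1.66 and 2.02. The third was the modifier Kcns1, with log2 differences of 1.36 and 0.72. Kcnh1 went the other way, with 13.9 in Slc17a6 and 33.7 in Slc32a1 clusters of SD and 11.5 and 28.3 in SD_RS, log2 differences of -1.28 and -1.30. Kcnh8 differed by -1.19 and -1.56, and its highest cluster, Pou3f1 Adarb2 Lhx8, is of the Slc32a1 type.

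The comparison that the design implies is recovery sleep after deprivation against deprivation alone. A gene was called where SD_RS and SD differed by over 1.5-fold, the counting interval of the log2 ratio excluded 0, and both libraries had at least 50 UMIs in the class. In neurons, 0 of the 69 members tested were higher in SD_RS (0.739% of 13798 genes) and 1 was lower (1.53% of genes). That member was Kcnj2, the strong inward rectifier, with 194 UMIs in SD and 117 in SD_RS. Its level was 2.16 CPM in SD and 1.20 in SD_RS, a log2 ratio of -0.85 (-1.20 to -0.52). Neurons with Xist only gave -0.95 (-1.44 to -0.46) and neurons with Y-linked transcripts only gave -0.84 (-1.50 to -0.24), so the lower level was seen within either call. Kcnj2 was at 21.8 and 17.2 in microglia, 4.01 and 1.61 times lower in endothelial cells, and at 4.62 and 3.54 in oligodendrocytes. The summed level of oligodendrocyte markers in neurons was 143.7 in SD and 86.96 in SD_RS. The part of RNA from any of these classes in the neuronal ratio was not tested.

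**Figure D4:**
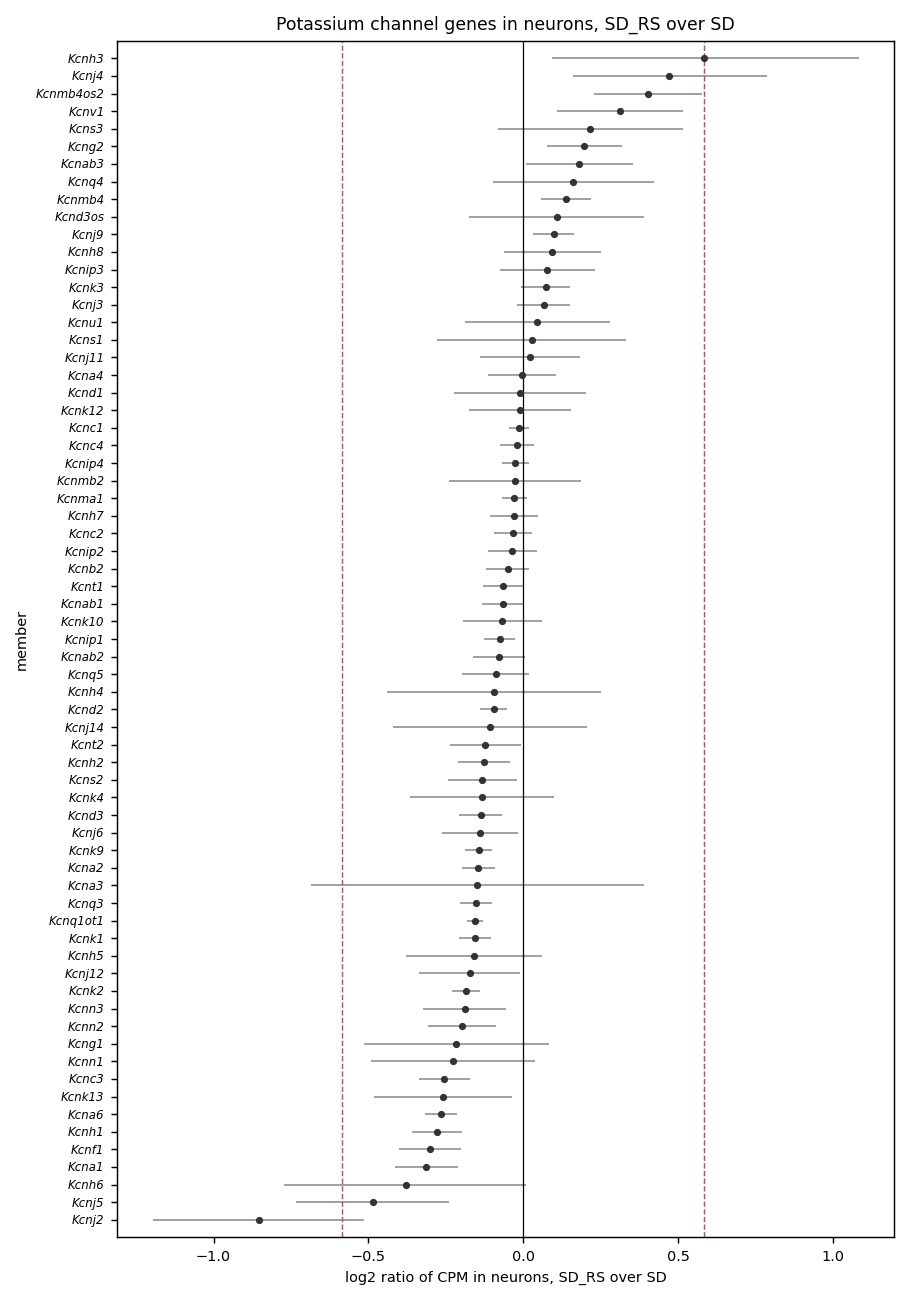
Log2 ratio of SD_RS over SD in neurons for 67 of the 69 members with at least 50 UMIs in both libraries, with 95% counting intervals and dashed lines at 1.5-fold. Kcnj2 at -0.85 is the member called, and the median member lies at -0.08.

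Smaller differences leaned to lower levels in SD_RS. The counting interval lay below 0 for 26 of the 69 members (37.7%, against 29.0% of genes) and above 0 for 8 (11.6%, against 22.6% of genes), and the median log2 ratio was -0.08, beside -0.02 over all genes. Counting intervals hold no spread between animals, so these counts say nothing of replicates. Of the 33 voltage-gated alpha subunits tested, 13 had an interval below 0 and 3 above. Of the 8 two-pore genes tested, 4 lay below and 0 above, with a median of -0.14. Of the 9 inward rectifiers tested, 4 lay below and 2 above. Of the 9 calcium- and sodium-activated members, 3 lay below and 1 above, and of the 7 accessory members 1 lay on each side. After Kcnj2 the lowest ratios were those of Kcnj5 (-0.49, -0.73 to -0.24), Kcnh6 (-0.38, -0.77 to 0.01), Kcna1 (-0.31, -0.41 to -0.21) and Kcnf1 (-0.30, -0.40 to -0.20). The highest were those of Kcnh3 (0.58, 0.09 to 1.08, from 57 and 93 UMIs), Kcnj4 (0.47, 0.16 to 0.79), Kcnmb4os2 (0.40, 0.23 to 0.58), Kcnv1 (0.31, 0.11 to 0.51) and Kcns3 (0.22, -0.08 to 0.52). The ratio of Kcnh3 was 0.57 (-0.08 to 1.26) in neurons with Xist only and -2.48 (-5.60 to -0.48, from 26 and 2 UMIs) in those with Y-linked transcripts only. That of Kcnj4 was 1.27 and -0.20 in these neurons, and that of Kcnv1 was 0.58 and -0.10. Kcnmb4os2 gave 0.14 and 0.70, Kcna1 gave -0.08 and -0.54, and Kcns3 gave 0.0017 and 0.14.

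Within the 31 clusters, 1525 pairs of cluster and member had at least 20 UMIs over both libraries. Of these 35 were higher in SD_RS (2.30%, against 2.00% of all pairs of cluster and gene) and 62 were lower (4.07%, against 2.76%). Kcnf1 was lower in 7 of the 28 clusters tested and higher in 1. Kcna1 was lower in 5 of 30 and higher in 1. Kcng2 was higher in 5 of 27 and lower in none, with log2 ratios of 0.74 to 1.45 where called. Other members leaned one way with few calls: the ratio was below 0 in 28 of 31 clusters for Kcna6, in 25 of 28 for Kcnh1 and in 25 of 30 for Kcnk2, and above 0 in 26 of 31 for Kcnj9. Clusters share the libraries and their sex mix and are no replicates. The share of all genes leaning so was not counted. In neurons with Xist only and Y-linked transcripts only, Kcnf1 gave -0.11 and -0.31 and Kcng2 0.59 and 0.16. Kcna6 gave -0.27 and -0.42, Kcnh1 -0.03 and -0.47, Kcnk2 -0.17 and 0.12, and Kcnj9 0.06 and 0.16. With Xist only, intervals of Kcnf1, Kcnh1 and Kcnj9 held 0, and with Y-linked transcripts only that of Kcng2. Kcnk2 was called lower in 2 clusters, with 163.9 CPM in SD and 99.4 in SD_RS in Calcr Brs3 Prok2 and 105 and 69.5 in Tac2 Crh Lamp5. Kcnk9 was called lower in 3, of which Six3 Arhgap36 Pmaip1 had the most UMIs (141.7 and 80.2 CPM, log2 ratio -0.82, -1.13 to -0.51). Kcnj2, with its highest levels in Tcf7l2 Nrn1 Meis2 (11.4 and 9.44) and Trh Otp Ebf1 (8.18 and 6.42), could be tested in 4 clusters, with a ratio below 0 in each and none called.

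The Tac2 Gal Amigo2 cluster, where Kcnk9 was highest, had a log2 ratio of -0.10 (-0.23 to 0.03) for Kcnk9 itself. The other acid-sensitive leak channel of that family, Kcnk3, was at 18.6 CPM (14.0 to 24.4) in SD and 38.1 (30.9 to 46.6) in SD_RS, a log2 ratio of 1.03 (0.53 to 1.54). Kcnk10 was at 13.4 (9.46 to 18.4) and 26.1 (20.1 to 33.3), a log2 ratio of 0.96 (0.37 to 1.58). The sodium-activated Kcnt2 was at 39.1 and 24.9, a log2 ratio of -0.65 (-1.12 to -0.19). These were the 3 members called among 43 tested, where 2.37% of genes were higher and 2.96% lower. The cluster had 95 cells in SD and 79 in SD_RS, and 48.4% and 91.1% of all its cells had Xist and no Y-linked UMIs. In the Sox3 C1ql3 Ctxn3 cluster, 3 subunits of G-protein-gated channels were higher in SD_RS: Kcnj9 (29.5 and 50, log2 ratio 0.76, 0.27 to 1.27), Kcnj3 (9.31 and 19.2, log2 ratio 1.05, 0.19 to 1.95) and Kcnj6 (2.07 and 11.5 from 4 and 21 UMIs, log2 ratio 2.48, 0.91 to 4.48). They were the members called higher among 45 tested there, beside Kcnh2 and Kcna1 called lower, and 2.31% of genes were higher and 2.07% lower. Both clusters were singled out after their values were seen.

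Astrocytes differed between libraries in their makeup before any channel gene was compared. The cluster led by Hr and Etnppl held 1654 cells in SD and 146 in SD_RS, and that led by Hes5 and Sfrp5 held 359 and 1111. Over all astrocytes, 3 of 19 members tested were called higher in SD_RS (3.04% of 8606 genes) and 1 lower (3.31% of genes). Kcnc4, a Shaw-type channel gene, was at 28.4 CPM in SD and 43.2 in SD_RS, a log2 ratio of 0.61 (0.31 to 0.90). The modifier Kcns3 was at 12.3 and 18.6, a log2 ratio of 0.60 (0.14 to 1.05), and Kcnip2 at 7.52 and 12.6, a log2 ratio of 0.74 (0.17 to 1.31). Kcnq3 was at 42.5 and 28.0, a log2 ratio of -0.60 (-0.92 to -0.29). Kcnn2 was at 237 (226 to 248) and 159.7 (148 to 172), a log2 ratio of -0.57 (-0.70 to -0.44), just inside the 1.5-fold limit. Kcnip3 was at 126 and 174, a log2 ratio of 0.47 (0.33 to 0.61). The interval lay above 0 for 10 of the 19 (52.6%, against 15.2% of genes) and below 0 for 2 (10.5%, against 17.8%), with a median of 0.23 beside -0.02 over all genes.

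Within the Hr and Etnppl cluster the log2 ratio of Kcnc4 was 0.65 (-0.06 to 1.30), and within the Hes5 and Sfrp5 cluster it was 0.73 (0.12 to 1.39). Kcnn2 gave -0.36 (-0.68 to -0.05) and -0.55 (-0.78 to -0.33) in these clusters, and Kcnip3 gave 0.37 (0.01 to 0.71) and 0.55 (0.27 to 0.85), so these 3 ratios had the same sign inside each. In astrocytes with Y-linked transcripts only, Kcnc4 was no longer higher, with a log2 ratio of -0.13 (-0.89 to 0.57, from 87 and 21 UMIs), and Kcnq3 gave -0.08. Within the Hr and Etnppl cluster and the Hes5 and Sfrp5 cluster, Kcns3 gave 0.83 and 1.0. Kcnip2 gave 0.19 and 0.51 in these clusters, and the intervals of both genes held 0. Kcnq3 gave -0.62 (-1.51 to 0.15) and -0.16 (-0.75 to 0.47) in the same clusters. No member met the call inside either cluster, since at least 1 library fell short of 50 UMIs or the fold was below the limit. The summed level of oligodendrocyte markers in astrocytes was 883.5 in SD and 389.4 in SD_RS, and Kcnq3 was higher in oligodendrocytes than in astrocytes. Its part in the ratio of Kcnq3 was not tested.

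**Figure D5:**
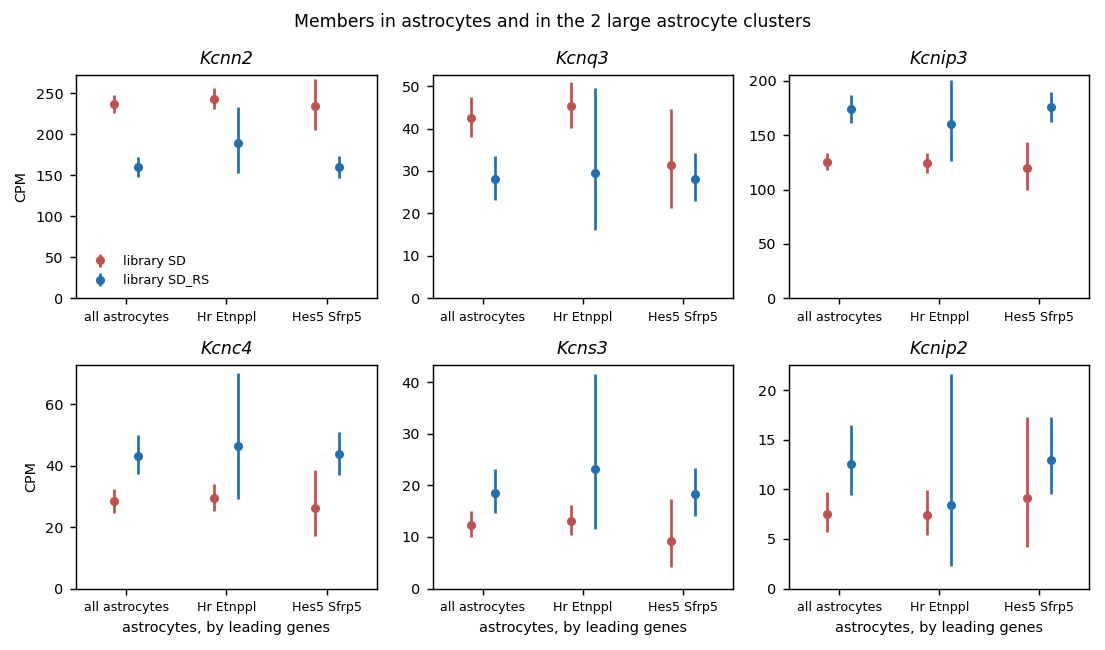
Levels of Kcnn2, Kcnq3, Kcnip3, Kcnc4, Kcns3 and Kcnip2 in all astrocytes and in the clusters led by Hr and Etnppl and by Hes5 and Sfrp5, in CPM with 95% counting intervals, for SD and SD_RS. Kcnn2 is lower in SD_RS in both clusters (243 against 189.8, and 234 against 159.8), and Kcnc4 is higher in both (29.5 against 46.4, and 26.4 against 43.7).

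In the other 6 classes no member was called. Members tested numbered 6 in oligodendrocytes (3.42% of genes called higher and 2.44% lower), 9 in oligodendrocyte precursors (2.77% and 1.44%), 2 in microglia (3.02% and 1.97%), 1 in endothelial cells (4.55% and 2.73%), 1 in pericytes (7.67% and 3.51%) and 2 in smooth muscle cells (1.69% and 1.46%), so few calls could be made. Kcnj8 in pericytes had a log2 ratio of 0.13 (-0.13 to 0.39). Kcnip3 in precursors had 0.38 (0.19 to 0.56). Kcnk6 in microglia was not tested because SD_RS had 20 UMIs, but its interval was far from 0, with a log2 ratio of -1.59 (-2.38 to -0.87). The summed level of neuronal markers in microglia was 485.6 in SD and 233.4 in SD_RS, and Kcnk6 was at 0.446 and 0.266 in neurons. The part of RNA from other cells in the microglial ratio of Kcnk6 was not tested.

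Genes whose products join or tether potassium channels, 16 in a fixed list, were read in the same way. In neurons, 13 were tested and none was called higher (0.739% of genes) or lower (1.53%), with a median log2 ratio of -0.04. In astrocytes 1 of 4 tested was higher (3.04% of genes), Cntnap1 (12.1 and 18.6, log2 ratio 0.62, 0.16 to 1.07), which encodes a cell adhesion protein of the paranode. Abcc9, the sulfonylurea receptor that pairs with the Kcnj8 product, was enriched in pericytes like Kcnj8 itself (821 and 891), although Abcc9 was also a marker that named these cells. Lgi1, a secreted ligand that affects Shaker-type channels, was enriched in astrocytes (238 and 202). Hcn2, a cation channel gene of the same superfamily, was enriched in oligodendrocytes (401 and 492, beside 36.7 and 36.3 in neurons). Hcn3, Cntnap1, Cntnap2 and Lrrc55 were enriched in neurons.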

How the data were processed

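Per the file headers and the submitters' processing notes, the authors made the deposited UMI count matrices with Cell Ranger 3.0.2 on mm10, and their cluster table, with fractions of cells detecting a gene, with Seurat 4.0.4. Whether strand was used in counting is not stated. The fractions are the authors' deposited values, shown as percentages.

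Barcodes with 500 genes or more and a mitochondrial share under 20% were kept, and Scrublet doublet calls were removed (580 in SD and 297 in SD_RS). Both libraries were clustered together with Scanpy 1.11.5 and leidenalg 0.10.2, at resolution 1.0 for all cells and 1.5 for neurons, on 2000 variable genes and 40 components. All Kcn genes were among the 285 genes left out of clustering, with activity, stress, clock, sex-linked, mitochondrial, ribosomal and haemoglobin genes. Classes were named from marker lists; how many markers a name needs was settled after seeing the clusters, and 2 clusters stayed unnamed. UMIs were summed over the cells of a class and divided by all UMIs of that class. Intervals are exact Poisson for levels and exact conditional binomial for ratios, at 95%, and cover counting error only. With 1 library per group no test between conditions was possible. SciPy 1.17.1, NumPy 2.4.6 and pandas 2.3.3 were used.

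Named are every member enriched outside neurons, the members with the most neuronal UMIs, the 20 with the largest ratio of a cluster shared by both libraries to all neurons, every called member, and the 5 highest and 5 lowest ratios in neurons. The members, lists and rules were chosen with earlier results of these data known. A few genes are counted in the totals and not reported here by name. Alternatives covered the fold, UMI minimum, doublets, gene minimum, sex calls, scaling, weighting and clustering resolution.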

Additional observations from a re-analysis of the deposited data

Results flagged for a closer look

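Each library pooled animals of both sexes, so neurons were split into those with Xist UMIs and no Y-linked UMIs (1335 in SD and 3160 in SD_RS) and those with Y-linked UMIs and no Xist UMIs (2118 and 924). The labels do not give the number of animals behind either call. Of 58 members with at least 50 UMIs in all 4 sets of neurons, 22 had ratios of opposite sign, and in 11 both intervals excluded 0. In 4 of these 11 the ratio of SD_RS over SD had opposite signs in the neurons with Xist and those with Y-linked transcripts. The same counts were not made over all genes, so they cannot be read as a trait of the members. The leak channel gene Kcnk2 had a log2 ratio of -0.17 (-0.24 to -0.10) with Xist and 0.12 (0.04 to 0.19) with Y-linked transcripts. The remaining 3 encode calcium-binding partners of A-type channels. Kcnip3 had 0.41 (0.17 to 0.65) with Xist and -0.43 (-0.72 to -0.14) with Y-linked transcripts. Kcnip2 had 0.26 (0.14 to 0.39) and -0.26 (-0.40 to -0.11). Kcnip4 had -0.088 (-0.15 to -0.02) and 0.081 (0.01 to 0.16). None of these ratios reached 1.5-fold. The difference between the sex calls was not tested, since each call has 1 library per group.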

How the results depend on the processing

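No paired analysis was possible because each group has 1 library. The number of members called in SD_RS against SD rested on few UMIs and moved with most settings. With a fold of 2, neurons had 0 lower and astrocytes 0 higher and 0 lower. With at least 20 UMIs, astrocytes had 2 lower and the other 6 classes 4 called, all lower, among them Kcnk6 in microglia, Kcnc1 in oligodendrocytes and Kcnip1 in precursors. With doublet calls kept, neurons had 2 lower, astrocytes 1 higher and 2 lower, and 19 members were class-enriched in place of 33, with 16 of the 17 neuronal calls lost. With at least 1000 genes per cell, astrocytes had 1 higher and the other classes 1 called. Neurons with Xist only had 1 higher. Y-linked calls only gave neurons 1 higher and 0 lower, astrocytes 0 higher and the other classes 1 called, and Kcnc4 in astrocytes turned to -0.13, from 87 and 21 UMIs. Leaving mitochondrial and ribosomal protein genes out of the scaling gave astrocytes 1 higher and 2 lower. A mean over cells gave neurons 2 lower and astrocytes 0 lower. Alternatives chosen after seeing the data gave 0 lower in astrocytes at equal cluster shares, and 0 higher and 0 lower within either astrocyte cluster alone. The cause of these moves, including the smaller number of UMIs in subsets of cells, was not tested. Of 134 log2 ratios of named members under these alternatives, 121 lay within the counting interval of the reported value. In 4 the sign turned, all with Y-linked calls only: Kcnc4 in astrocytes, and in neurons Kcnh3 (-2.48), Kcnj4 (-0.20) and Kcnv1 (-0.10). Kcnj2 in neurons stayed between -1.13 and -0.84 in its 9 alternatives. Class-enriched members numbered 24 at 3 times the second class, 28 with at least 50 UMIs, 39 at resolution 0.5 and 35 with at least 1000 genes. At resolution 0.5 the call of Kcnj8 in pericytes was lost. The same highest neuron cluster was found for 14 of the 20 named members in cells with Xist only and for 18 at resolution 1.0. Fewest members could be tested in pericytes and endothelial cells, with 1 member at 50 UMIs in both libraries in each.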

Other observations

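Some neuron clusters had too few cells to be described above, and their values rest on few UMIs. A cluster led by Gnrh1, Cxcl14 and Six6, with 7 cells in SD and 10 in SD_RS, had Kcng4 at 126 CPM (77.9 to 192, 21 UMIs) and 71.0 (41.3 to 114, 17 UMIs), beside 0.479 and 0.327 over all neurons. In the authors' deposited table, Kcng4 was detected in 70.6% of the cells of their cluster e1, led by Gnrh1, and in 0.4% of other cells. The same 7 and 10 cells had the BK beta subunit Kcnmb2 at 126 (77.9 to 192) and 75.1 (44.5 to 119), beside 3.98 and 3.90 over all neurons.

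A cluster led by Oxt, Avp and Olig1, with 55 and 46 cells, had Kcnmb4 at 125 (112 to 140.3) and 154 (139 to 171), beside 25.1 and 27.6 over all neurons. A cluster led by the cholinergic genes Slc5a7 and Slc18a3, with 8 and 11 cells, had the fast channel gene Kcnc2 at 209 (172 to 252) and 202 (171 to 236), beside 47.0 and 45.9. A cluster led by Ghrh, Trh and Sncg, with 48 and 49 cells, had the modifier Kcns1 at 12.2 (6.99 to 19.9) and 15.1 (9.08 to 23.6), beside 1.92 and 1.95.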
